A study of Mus musculus with 13 samples.

Results

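The bone morphogenetic protein (BMP) and transforming growth factor beta (TGF-beta) pathway genes described here are 40 genes listed by symbol as ligands, receptors, antagonists, SMAD proteins and ID target genes. They were found by name in a table of 24972 genes, and all 40 were present with reads and with an adjusted p-value. The table compares polyA RNA of mouse tongue epithelium between 6 samples labelled Krt14-Cre(+); LSL-H3K36M and 7 control samples labelled Krt14-Cre(-); LSL-H3K36M. All 13 samples thus carried the inducible allele of a histone H3 whose lysine at position 36 is replaced by methionine, a mutant that blocks methylation of that lysine, and the Cre recombinase that switches it on was present in the former group alone. The Krt14 promoter drives Cre in the basal cells of stratified epithelia. No group carried Cre without the allele, so effects of Cre and of the mutant histone cannot be told apart. The sources used here do not give age, sex or the number of animals, and the p-values measure the spread between these samples, which may be technical.

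BMPs, TGF-betas and activins are secreted dimers that bring together type I and type II receptor kinases on the cell surface. The activated type I receptor phosphorylates receptor SMADs. SMAD1 and SMAD5 mainly serve BMPs, whereas SMAD2 and SMAD3 serve TGF-betas and activins, and both sets enter the nucleus with the common partner SMAD4. Noggin, chordin, gremlin and follistatin bind the ligands outside the cell, the inhibitory SMADs and the pseudoreceptor BAMBI act inside it or at its membrane, and the ID genes are immediate targets of BMP signals. In the tongue, BMPs and their antagonists are known for patterning the taste and filiform papillae, and TGF-beta is known for restraining the growth of stratified epithelium.

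Fitted group levels and the statistics of the comparison were used, and values of single samples were not analysed here. The control and H3K36M levels are normalised counts per library, a scale on which one library held 15769751 counts on average. Log2 fold changes and standard errors (SE) are those of the authors' DESeq2 fit, positive where H3K36M was higher, and a gene was called where its adjusted p was below 0.05. The 95% intervals are those of a normal distribution around the log2 fold change. Whether the groups overlapped sample by sample could not be seen, and a between-library coefficient of variation (CV) was computed instead from each SE and the fitted levels.

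Bambi, Bmp4, Bmp2 and Tgfbr1 were lower in H3K36M, and none of the 40 genes was called higher (the authors' DESeq2). The 4 lower genes were 10.0% of the 40, set beside 1.59% called lower, 1.85% called higher and 3.43% called in either direction among all tested genes. The 40 were chosen with earlier results of these data known, so these shares are a description and no test. At an unadjusted p below 0.05, 2 members were higher and 6 lower, a total of 8, where the background was 9.82% of all tested genes, 5.04% higher and 4.79% lower. The log2 fold change was below 0 in 23 of the 40 and in 43.4% of all tested genes, and its median was −0.04 among the members and 0.07 over all tested genes. The called genes were 2 ligands, 1 type I receptor and 1 pseudoreceptor, and no antagonist, SMAD or ID gene was among them. Of the 40, 24 lay within 0.5 of 0 on the log2 scale, against 65.3% of all tested genes.

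**Figure D1:**
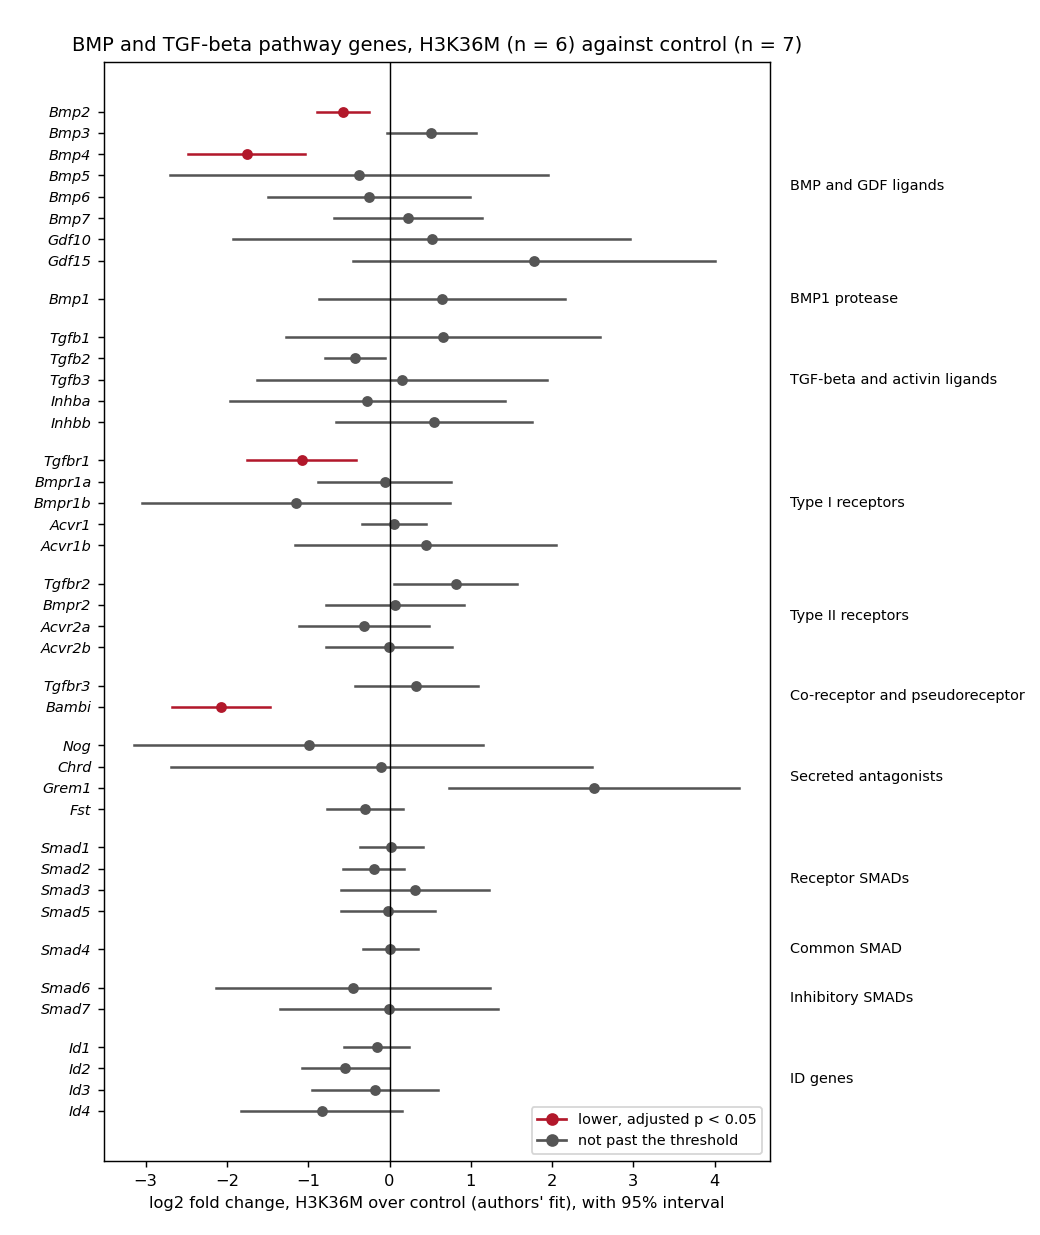
Log2 fold change of H3K36M (n = 6) over control (n = 7) for the 40 genes, grouped by role, with points for the authors' estimate and bars for the 95% interval. Bambi (−2.07), Bmp4 (−1.76), Tgfbr1 (−1.08) and Bmp2 (−0.57) are in red as past the adjusted threshold, and the other 36 genes are in grey.

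Among the BMP and GDF ligands, Bmp4 and Bmp2 were lower and 6 were not past the threshold. Bmp4, a ligand made by both epithelium and mesenchyme in developing oral organs, lies on chromosome 14 (46383520 to 46390669, minus strand, GRCm38). In the authors' deposited table its fitted level was 160 normalised counts in control and 47.2 in H3K36M. For this 3.38-fold lower level the authors' deposited table gives a log2 value of −1.76 (SE 0.37, adjusted p = 0.00017), with a 95% interval of −2.48 to −1.04. The implied CV between libraries was 0.443, below the median of 0.553 over all tested genes. The antisense gene Gm15217 overlaps Bmp4 and had a mean of 0.0789 normalised counts in the authors' deposited table.

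The promoter of Bmp4 is shown, as that of a called member whose sequence was at hand, by the 250 bases before its RefSeq start (GRCm38.p6, chr14:46390670-46390919, minus strand).

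Bmp4: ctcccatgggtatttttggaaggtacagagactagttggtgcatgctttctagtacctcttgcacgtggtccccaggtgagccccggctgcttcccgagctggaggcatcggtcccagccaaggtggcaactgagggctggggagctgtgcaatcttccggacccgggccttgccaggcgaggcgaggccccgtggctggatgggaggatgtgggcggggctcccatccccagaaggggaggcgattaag

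Capitals in the promoters printed here mark CAGAC or its reverse complement GTCTG, the core of the SMAD binding element, and GGCGCC, a palindromic GC-rich SMAD motif. Both strands were searched and the motifs share no bases in these windows. The first occurred in 42.2% and the second in 9.59% of 32851 promoter windows of the same length. The Bmp4 window held 0 of either, with 63.2% G and C and 11 CpG dinucleotides.

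Bmp2, a close relative of Bmp4 that binds the same receptors, lies on chromosome 2 (133552159 to 133562885, plus strand). It stood at 209 normalised counts in control and 141 in H3K36M in the authors' deposited table, with a log2 fold change of −0.57 (SE 0.16, adjusted p = 0.0185). This 1.49-fold difference was the smallest of the called ones, in the gene with the lowest implied CV of the 40 (0.188).

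Bmp7, the most abundant BMP of the list per length of exon, did not share that direction. Its levels in the authors' deposited table were 404 normalised counts in control and 474 in H3K36M (log2 fold change 0.23, SE 0.47). Bmp3, which binds activin type II receptors and opposes other BMPs, had levels of 163 and 234 there, with a log2 fold change of 0.52 (SE 0.28, adjusted p = 0.585, the authors' deposited table). Bmp5 (−0.38, SE 1.19), Bmp6 (−0.25, SE 0.63) and Gdf10, a relative of Bmp3 (0.52, SE 1.25), had wide intervals in the authors' deposited table. Gdf15, a stress-induced and divergent family member, had a mean of 1.16 normalised counts in the authors' deposited table, about 4 counts summed over the control libraries and 11 over those of H3K36M. The ratio of those rounded sums per library was 3.21, with an exact counting interval of 0.951 to 13.8, and that of the unrounded levels was 3.44.

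Per kilobase of exon, the order of the fitted BMP ligand levels differed between the groups, though not all of these genes were apart within a group. In control it ran Bmp7 (101 normalised counts per kb), Bmp4 (71.1), Bmp2 (58.9) and Bmp3 (22.1). In H3K36M it ran Bmp7 (118), Bmp2 (39.6), Bmp3 (31.6) and Bmp4 (21.0). Bmp4 made up 25.1% of the summed level per kb of the 8 BMP and GDF ligands in control and 8.72% in H3K36M, while Bmp7 made up 35.5% and 49.0%. Shares of a sum depend on each other, so lower Bmp4 and Bmp2 raise the share of Bmp7 even at an unchanged level. The ratio of Bmp4 to Bmp7 was 0.706 in control and 0.178 in H3K36M. The approximate intervals of Bmp4 per library ran from 114 to 223 normalised counts in control and from 32.5 to 68.5 in H3K36M, so they did not overlap, whereas those of Bmp7 did (263 to 622 and 298 to 755).

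**Figure D2:**
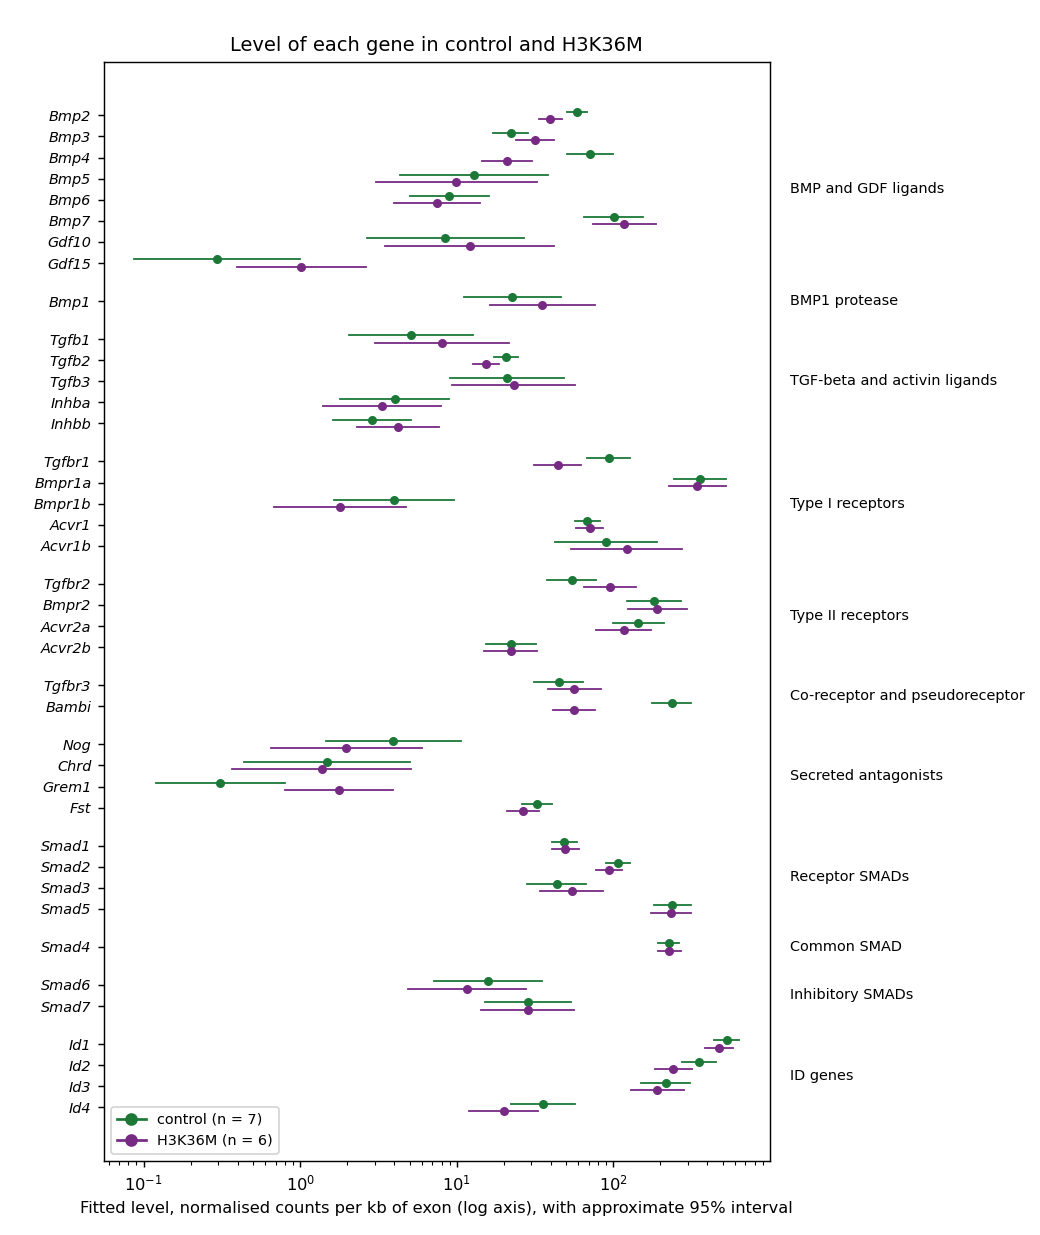
Fitted level of each gene in control (green, n = 7) and H3K36M (purple, n = 6), in normalised counts per kb of exon on a log axis, with bars for the approximate 95% interval implied by the authors' SE. The bars of Bambi, Bmp4, Bmp2 and Tgfbr1, and barely those of Grem1, are apart between the groups, and those of the 4 receptor SMADs and of Smad4 lie over each other.

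Bmp1, which is not a growth factor but a secreted metalloprotease that matures procollagen and cleaves chordin, stood at 201 normalised counts in control and 313 in H3K36M (log2 fold change 0.64, SE 0.77, the authors' deposited table). Its implied CV was 0.960, so that a change of 2.42 on the log2 scale would have been needed for a call.

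No TGF-beta or activin ligand passed the threshold. Tgfb2 was the most precisely measured of them. Its levels in the authors' deposited table were 119 normalised counts in control and 88.8 in H3K36M (log2 fold change −0.43, SE 0.19, unadjusted p = 0.0244, adjusted p = 0.340). For Tgfb3 the levels were 70.6 and 78.3 (log2 fold change 0.15, SE 0.91), and for Tgfb1, the isoform best known from immune and stromal cells, 25.7 and 40.6 (0.66, SE 0.99) in the authors' deposited table. Inhba and Inhbb encode the beta chains of the activins. Their log2 fold changes were −0.27 (SE 0.87) and 0.55 (SE 0.61) in the authors' deposited table, at means of 23.6 and 14.9 normalised counts.

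The type I receptor of TGF-beta was lower, and its type II partner was not. Tgfbr1 encodes the kinase that phosphorylates SMAD2 and SMAD3, and lies on chromosome 4 (47353222 to 47414931, plus strand). Its level was 611 normalised counts in control and 289 in H3K36M in the authors' deposited table. The log2 fold change of −1.08 (SE 0.34, 95% interval −1.75 to −0.41) had adjusted p = 0.0484, as the authors' deposited table lists it. Among the called members it was the one nearest to the threshold. Its adjusted p was 0.0547 when adjusted over every gene with a p-value and 0.0562 over genes with a mean of at least 50. It was 0.0527 over all genes with reads, which takes in outlier-marked and low-mean genes together. Each of these ends the call, and outlier-marked genes were not added with the filter on the mean kept.

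Tgfbr2, the receptor that binds TGF-beta first and activates TGFBR1, stood at 443 normalised counts in control and 779 in H3K36M in the authors' deposited table. Its log2 fold change of 0.81 (SE 0.39, 95% interval 0.05 to 1.57, unadjusted p = 0.0355) had adjusted p = 0.424 in the authors' deposited table. Per kb of exon, the ratio of Tgfbr2 to Tgfbr1 was 0.580 in control and 2.15 in H3K36M. No test of that ratio was possible, since how the receptors vary together between libraries is not in the table.

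Their promoters are shown side by side, as those of receptor partners with fold changes of opposite sign (250 bases before the RefSeq start, GRCm38.p6, for Tgfbr1 chr4:47352972-47353221, plus strand, and for Tgfbr2 chr9:116175364-116175613, minus strand).

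Tgfbr1: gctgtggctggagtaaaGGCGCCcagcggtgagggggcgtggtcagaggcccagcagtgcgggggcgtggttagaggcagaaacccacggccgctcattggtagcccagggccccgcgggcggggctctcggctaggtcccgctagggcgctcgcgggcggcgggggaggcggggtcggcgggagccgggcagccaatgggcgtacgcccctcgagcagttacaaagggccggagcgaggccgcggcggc

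Tgfbr2: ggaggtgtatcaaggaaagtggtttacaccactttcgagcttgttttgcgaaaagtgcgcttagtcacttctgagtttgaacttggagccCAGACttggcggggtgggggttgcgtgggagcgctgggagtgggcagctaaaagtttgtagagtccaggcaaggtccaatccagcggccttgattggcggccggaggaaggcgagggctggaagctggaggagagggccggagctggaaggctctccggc

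The Tgfbr1 window held 1 GGCGCC and 0 CAGAC, with 74.8% G and C and 29 CpG dinucleotides. That of Tgfbr2 held 1 CAGAC and 0 GGCGCC, with 58.4% G and C and 12 CpG dinucleotides. These matches describe the letters and show no binding.

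Bmpr1a and Bmpr2 were the most abundant of the 9 receptors and lay near 0. Bmpr1a, the main BMP type I receptor of epithelium, stood at 2276 normalised counts in control and 2187 in H3K36M (log2 fold change −0.06, SE 0.42) in the authors' deposited table. For the BMP type II receptor Bmpr2 the levels were 3288 and 3445 (0.07, SE 0.43) in the authors' deposited table. Acvr1, a BMP type I receptor also known as ALK2, was measured with an SE of 0.20 around a log2 fold change of 0.05 in the authors' deposited table. Its 95% interval of −0.34 to 0.45 did not reach a 2-fold difference either way.

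The activin receptors and Bmpr1b did not pass either. The activin type I receptor Acvr1b stood at 0.44 (SE 0.82) and the activin and BMP type II receptors Acvr2a and Acvr2b at −0.31 (SE 0.41) and −0.01 (SE 0.40) on the log2 scale in the authors' deposited table. Bmpr1b, at 23.6 normalised counts in control and 10.6 in H3K36M, had a log2 fold change of −1.15 (SE 0.97) in the authors' deposited table. Among the 9 receptors, 1 was called lower and 0 higher.

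Bambi had the largest fold among the called members. It encodes a transmembrane protein that resembles a type I receptor but lacks the kinase domain, and so dampens BMP, activin and TGF-beta signals. It is itself a known target of BMP and of WNT signalling, and its values also belong to the WNT target genes. The gene lies on chromosome 18 (3507923 to 3516404, plus strand) and stood at 1197 normalised counts in control and 285 in H3K36M in the authors' deposited table. The 4.20-fold lower level was a log2 fold change of −2.07 (SE 0.31, 95% interval −2.67 to −1.47) and adjusted p = 7.03e-09, from the authors' deposited table. Among the 40 genes its place by level per kb went from 5 in control to 15 in H3K36M. Its ratio to Bmpr1a per kb was 0.659 in control and 0.163 in H3K36M. The pseudogene copy Bambi-ps1 had a mean of 2.04 normalised counts in the authors' deposited table, set beside 776 for Bambi.

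Tgfbr3, the co-receptor betaglycan that presents TGF-beta2 to its receptors, stood at 294 and 369 normalised counts in control and H3K36M (log2 fold change 0.33, SE 0.39) in the authors' deposited table. It ranked below Bambi per kb in control (44.9 against 236 normalised counts per kb), and the pair were level in H3K36M (56.4 and 56.2).

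Of the secreted antagonists none passed, and follistatin was the only abundant one. Fst, which binds activins and some BMPs, stood at 150 normalised counts in control and 122 in H3K36M (log2 fold change −0.30, SE 0.24, the authors' deposited table). An estimated change of 0.75 on the log2 scale would have been called. The other 3 were at the edge of detection. Noggin (Nog) stood at 6.68 normalised counts in control and 3.35 in H3K36M, and chordin (Chrd) at 9.25 and 8.61, with 95% intervals of the log2 fold change from −3.14 to 1.15 and from −2.69 to 2.49, by the SE in the authors' deposited table. Thpo overlaps Chrd on the opposite strand and had a mean of 9.70 normalised counts in the authors' deposited table, and the sources used here do not say whether reads were counted by strand. The same holds for Bmp6, Tgfb3 and Acvr2a, which overlap Txndc5, Ttll5 and Orc4 on the opposite strand, with means of 743, 101 and 713 normalised counts in the authors' deposited table.

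Gremlin (Grem1), an antagonist of BMP2 and BMP4, had the highest positive log2 fold change of the 40, 2.52 (SE 0.91, 95% interval 0.74 to 4.30), with adjusted p = 0.122 in the authors' deposited table. Its levels were 1.28 normalised counts in control and 7.37 in H3K36M in the authors' deposited table. Summed over the libraries that is about 9 and 44 counts, a ratio per library of 5.70 (exact counting interval 2.75 to 13.3, which leaves out the spread between libraries). An estimated change of 2.85 on the log2 scale would have been called.

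None of the 7 SMADs was called (the authors' DESeq2), 0 had an unadjusted p below 0.05, and all 7 lay within 0.5 of 0 on the log2 scale. Smad4, the partner common to all branches, stood in the authors' deposited table at 839 normalised counts in control and 846 in H3K36M (log2 fold change 0.01, SE 0.17, 95% interval −0.33 to 0.35). The BMP receptor SMADs Smad1 (0.02, SE 0.20) and Smad5 (−0.02, SE 0.29) and the TGF-beta receptor SMADs Smad2 (−0.19, SE 0.19) and Smad3 (0.32, SE 0.47) had 95% intervals that, except for Smad3 (−0.60 to 1.23), stayed within 1 of 0 on the log2 scale (the authors' deposited table). The inhibitory Smad6 and Smad7, which block receptor SMADs and are switched on by the signals they limit, stood at −0.45 (SE 0.86) and −0.01 (SE 0.69) in the authors' deposited table. Their implied CVs were 1.06 and 0.850, so that only estimated changes of at least 2.70 and 2.15 on the log2 scale would have been called.

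The ID genes encode helix-loop-helix proteins without a DNA-binding region, which hold back differentiation by pairing with E proteins. All 4 had negative fold changes and none was called. Id1, first of the 40 by level per kb in both groups, stood at 616 normalised counts in control and 552 in H3K36M (log2 fold change −0.16, SE 0.20, 95% interval −0.55 to 0.24) in the authors' deposited table. For Id2 the levels were 864 and 592 (−0.55, SE 0.27, unadjusted p = 0.0450, adjusted p = 0.482), and for Id3 388 and 343 (−0.18, SE 0.40), in the authors' deposited table. Id4, the least abundant, stood at 137 and 76.9 (−0.83, SE 0.51, adjusted p = 0.708) in the authors' deposited table. The list median was −0.36 on the log2 scale, and Id1 could not have fallen 2-fold within its interval.

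The spread between libraries set the size of change that could be called. The implied CV ran from 0.188 (Bmp2) to 1.61 (Chrd), with a median of 0.528 against 0.553 over all tested genes. It was under 0.3 in 8 members, among them Smad1, Smad2, Smad4, Acvr1, Id1, Fst and Tgfb2 beside Bmp2, and over 0.8 in 14, among them Bmp1, Bmp5, Gdf10, Tgfb1, Tgfb3, Inhba, Acvr1b and Bmpr1b. An estimated change of 1 on the log2 scale would have been called in 12 of the 40 genes, or 30.0%, and in 29.4% of all tested genes. This is the size the estimate must reach, and a true change of that size can be estimated below it. Of the 36 genes not called, 12 had a 95% interval that stayed within 1 of 0 in both directions. For the other 24 a 2-fold difference in at least 1 direction remained within the interval.

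**Figure D3:**
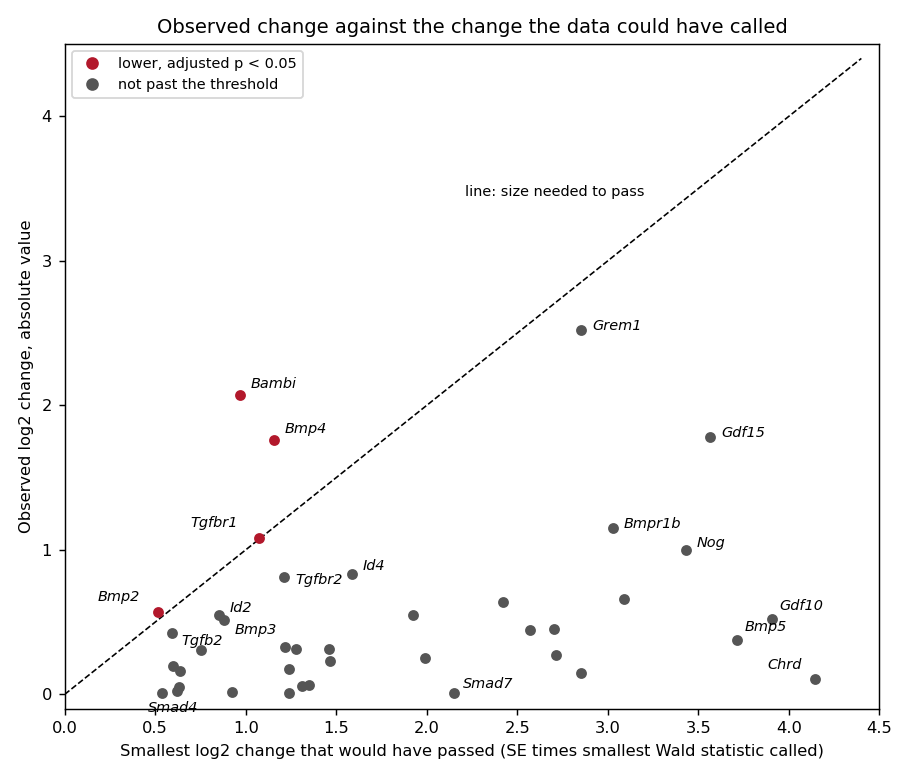
Absolute log2 change observed in each of the 40 genes against the smallest log2 change that would have passed in it, which is its SE times 3.14, the smallest absolute Wald statistic of any called gene. Bambi and Bmp4 lie well above the dashed line of equality, Bmp2 and Tgfbr1 just above it, and Grem1 (2.52 observed, 2.85 needed) is the nearest of the imprecise genes below it.

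By level per kb of exon, averaged over all samples, the 40 genes ran from Id1 (505 normalised counts per kb), Bmpr1a (352), Id2 (303), Smad5 (237) and Smad4 (227) down to Nog (3.03), Bmpr1b (2.96), Chrd (1.43), Grem1 (0.987) and Gdf15 (0.627). In control, the approximate intervals overlapped in all 39 pairs of neighbours in that group's order, so these intervals do not settle the order of neighbours. The median over the members was 38.9 normalised counts per kb, against 31.9 over all tested genes. Receptors (median 73.1) and ID genes (254) stood above the ligands (11.6). The place by fitted level moved by more than 3 between the groups in 10 genes. These include genes not called, such as Acvr1b (13 in control, 8 in H3K36M), so the count is no measure of change.

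Among 87 other genes of the pathway, taken from general knowledge of it with earlier results of these data known, 77 were tested, 3 were called higher and 3 lower. Each was 3.90% of those tested, against 1.85% higher and 1.59% lower over all tested genes. The genes called lower were Runx2, Smad9 and Smurf2. Runx2, a transcription factor of bone and teeth and a target of BMP signals, stood at 222 normalised counts in control and 119 in H3K36M (log2 fold change −0.90, SE 0.20, adjusted p = 0.000496) in the authors' deposited table. Smad9, the least abundant BMP receptor SMAD, stood at 38.8 and 18.9 (−1.04, SE 0.31, adjusted p = 0.0308) in the authors' deposited table. Smurf2, a ubiquitin ligase that marks SMADs and receptors for degradation, stood at 753 and 547 (−0.46, SE 0.14, adjusted p = 0.0419) in the authors' deposited table.

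The genes called higher were the ligands Gdf3 and Gdf5 and the receptor Amhr2, all of low level. Amhr2, the type II receptor of anti-Müllerian hormone, stood at 21.5 normalised counts in control and 69.2 in H3K36M (log2 fold change 1.69, SE 0.40, adjusted p = 0.00145) in the authors' deposited table. Gdf5, a ligand known from joints and cartilage, stood at 1.19 and 12.2 (3.36, SE 0.74, adjusted p = 0.000405) in the authors' deposited table. For Gdf3, a ligand of early embryos, the sums were about 2 counts over the control libraries and 49 over those of H3K36M. The rounded sums gave a ratio per library of 28.6 (exact counting interval 7.50 to 243), and the unrounded levels 25.2. The log2 fold change of Gdf3 was 4.66 (SE 1.02, adjusted p = 0.000427) in the authors' deposited table, where the SE holds the spread between libraries. The tested members of the list had a median log2 fold change of 0.13.

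No antagonist or latent-ligand binder was called among 19 tested by the authors' DESeq2, and 2 had an unadjusted p below 0.05 (Ltbp1 and Ltbp2, both higher). The most abundant, the small proteoglycan decorin (Dcn), which binds TGF-beta, and twisted gastrulation (Twsg1), which modulates BMP binding to chordin, stood at −0.20 (SE 0.31) and 0.03 (SE 0.26) in the authors' deposited table. Counts by role were 2 higher of 11 ligands, 1 higher of 8 receptors and co-receptors, 2 lower of 15 intracellular regulators and 1 lower of 24 target genes.

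**Figure D4:**
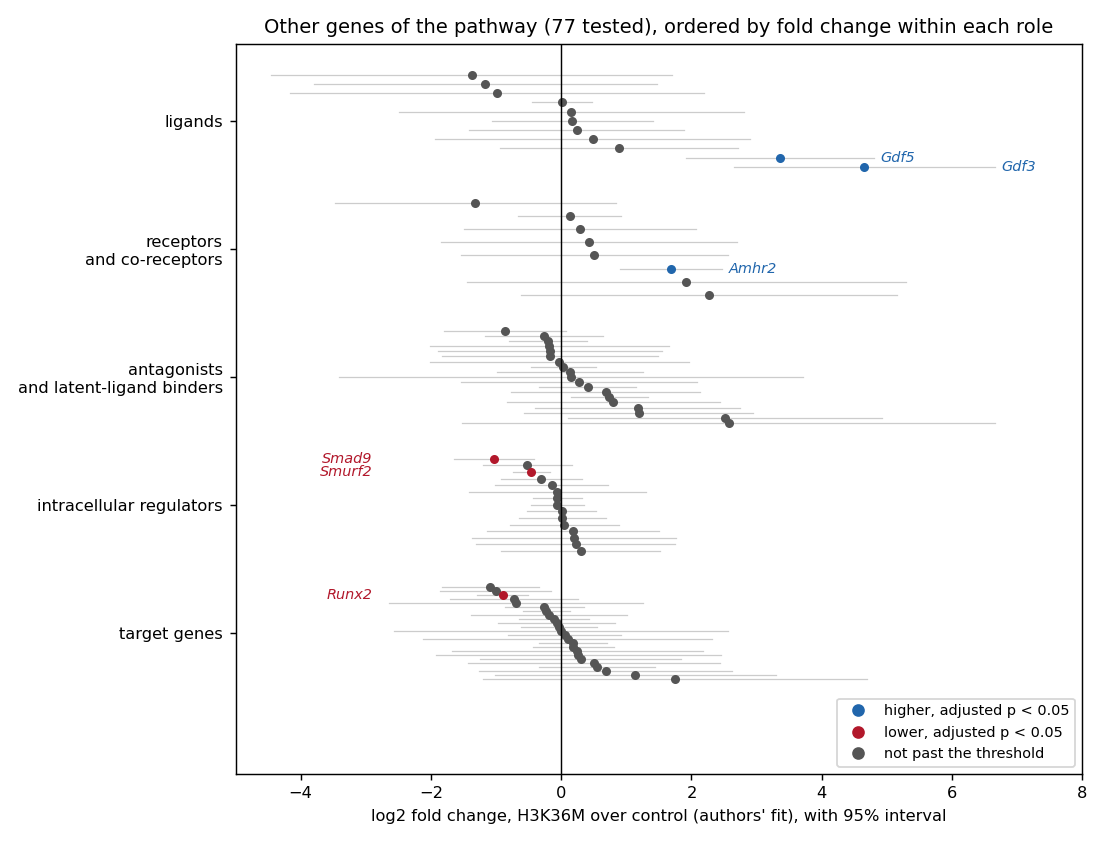
Log2 fold change of H3K36M (n = 6) over control (n = 7) for the 77 other tested genes of the pathway, ordered by value within each role, with grey bars for the 95% interval. Gdf3, Gdf5 and Amhr2 are in blue as higher, Smad9, Smurf2 and Runx2 in red as lower, and the antagonists and latent-ligand binders hold no called gene.

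Of the marker lists of other cell types, that of salivary gland held genes called between the same groups. The labelled tissue showed the differentiation keratins of oral mucosa, Krt13 and Krt4, with Krt4 at 714848 normalised counts in control and 679826 in H3K36M in the authors' deposited table. Of 8 stratified epithelial markers 1 was called, Krt14, the gene whose promoter drives Cre, with a log2 fold change of −0.87 (SE 0.26, adjusted p = 0.0292) in the authors' deposited table, and the summed level of the 8 was 2004790 in control and 1723430 in H3K36M. All 8 tested of 9 salivary gland and duct markers were higher (Bhlha15 was marked as an outlier). The implied CV was 1.73 for Pigr, 1.64 for Muc19 and 1.58 for Aqp5. It was lower for the keratins, from 0.468 (Krt19) to 0.873 (Krt8). Smgc and Muc19 overlap on the same strand of chromosome 15. The summed level of the 9 was 208 normalised counts in control and 3116 in H3K36M, with Pigr and Krt7 the most abundant and Smgc at about 0 in control. Of 8 skeletal muscle markers 0 were called, with a summed level of 74085 and 20805 and Myh4 and Tnnt3 the most abundant. Of 8 fibroblast markers, led by Dcn and Col3a1, 0 were called, at summed levels of 15384 and 13773. In bulk samples fewer cells of a type and less RNA per cell cannot be told apart, and the part of these cell types in the values of Bambi, Bmp4, Bmp2 and Tgfbr1 was not tested.

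The endothelial, smooth muscle, macrophage and T cell lists held no called gene (the authors' DESeq2), and neither they nor the muscle and fibroblast lists held a gene at an unadjusted p below 0.05. Their summed levels were 1155 in control and 1118 in H3K36M for 6 endothelial markers (led by Pecam1 and Vwf), 3690 and 2228 for 5 smooth muscle and pericyte markers (Rgs5 and Acta2), and 664 and 738 for 6 macrophage markers (Cd68 and Csf1r). They were 28.4 and 28.4 for the 3 of 4 T cell markers found in the table (Cd247 and Cd3g). Calls in these lists needed large estimated changes. The median smallest callable log2 change was 3.22 for endothelium, 2.95 for smooth muscle and pericyte, 2.38 for macrophage and 1.47 for T cell markers. It was 3.42 for skeletal muscle and 3.18 for fibroblast markers. The lack of calls therefore does not show equal amounts of these cells.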

How the data were processed

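PolyA RNA of mouse tongue epithelium was sequenced from 7 control and 6 H3K36M samples, per the labels, with a directional kit and single-end reads. The authors' tools, per the submitters' processing notes, included STAR and DESeq2, with the build GRCm38 (mm10) and no versions. The counting tool and its annotation are not given in the sources used here. Per the file headers, the deposited table held, for 24972 genes, the mean and the fitted control and comparison levels as normalised counts, which are a signal normalised by the authors. It also held the authors' log2 fold change with its standard error (log2 scale), the Wald statistic (a score), and the p-values and adjusted p-values. The deposited ontology tables were not used, as they name no genes. Adjusted p-values existed for 17449 genes. The authors' table left 7348 genes of low mean and 175 marked as outliers without one. In all 19909 genes with reads, the weighted group levels equalled the mean within 1e-06, and each fold change had the sign of the difference in level. Values of single samples were not analysed here, so library depths are unknown and the authors' DESeq2 test, planned for that case, was used in place of a count test.

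With Python 3.11.15, numpy 2.4.6, pandas 2.3.3 and scipy 1.17.1, 95% intervals, the smallest callable change (SE times 3.14), alternative Benjamini-Hochberg adjustments and levels per kb of exon (GENCODE M21, 97.8% of symbols matched once) were computed. The between-library CV was solved from the SE under a negative binomial with equal depths, an approximation checked on counts simulated under that same model. The check did not cover unequal depths, the authors' own fit or means under 20. Intervals of single levels rest on it. Sums of low genes are the fitted level times the number of libraries, rounded. Their ratios and exact intervals treat these rounded normalised sums as counts at equal depths, and the intervals cover counting error only. Promoters are from RefSeq (GRCm38.p6), where 27 of the 40 symbols matched. The members and lists were chosen with earlier results of these data known. All 40 members are named. Of the other lists, called genes or the 2 with the highest mean are named. One marker list is not reported here. The 6 alternatives were 2 thresholds, 2 filters on the mean, inclusion of outlier-marked genes together with those of low mean, and centring of the statistic.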

Additional observations from a re-analysis of the deposited data

How the results depend on the processing

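No paired analysis was possible because the table holds no values of single samples, and for the same reason leaving out each replicate and refitting a count model were not run. The members called lower were 4 under an adjusted p below 0.1 and with the statistic centred and scaled. They were 3 with no filter on the mean, at a mean of at least 50 and with outlier-marked genes included. Tgfbr1 was lost in each of these, and the setting with outlier-marked genes also had no filter on the mean. Under an adjusted p below 0.01 they were 2 (Bambi and Bmp4). No member was called higher under any of the 6 alternatives. At a mean of at least 50, 29 members remained to be tested, the count of other pathway genes called higher went from 3 to 0, since Gdf3, Gdf5 and Amhr2 have lower means, and all genes called higher went from 322 to 129 (called lower, from 277 to 186). At an adjusted p below 0.01 the other pathway genes called lower went from 3 to 1 (Runx2) and all genes called lower from 277 to 179. With the statistic centred on its median of 0.16 and divided by its robust SD of 0.92, all genes called lower went from 277 to 418 and those called higher from 322 to 374. For the 40 members and the 6 other called pathway genes, 254 gene and alternative pairs kept their side of the threshold, 7 lost the call and no called gene changed sign. Centring turned the statistic of Smad4, Smad1 and Bmpr2, none of them called, from above to below 0. With the longest transcript as length, all 40 members stayed within 5 places of their order per kb. In the 6 members with means under 20, an estimated change of 1 on the log2 scale could not have been called. Their SEs hold both counting error and spread between libraries, with implied CVs from 0.720 (Inhbb) to 1.61 (Chrd).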

Other observations

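Among the pathway genes outside the 40 that did not pass were Msx2, Itgb6 and Sostdc1. Msx2, a homeobox gene of skin appendages and a BMP target, stood at 241 normalised counts in control and 113 in H3K36M (log2 fold change −1.09, SE 0.38, adjusted p = 0.0943) in the authors' deposited table. Itgb6 encodes the epithelial integrin chain that activates latent TGF-beta. It stood at 414 and 206 normalised counts (−1.01, SE 0.44, adjusted p = 0.308) in the authors' deposited table. Sostdc1, a BMP and WNT antagonist of tooth and tongue epithelium, stood at 573 and 316 (−0.86, SE 0.48, adjusted p = 0.615) in the authors' deposited table. The latent TGF-beta binding proteins Ltbp1 (0.74, SE 0.30, adjusted p = 0.232) and Ltbp2 (2.52, SE 1.23, adjusted p = 0.460) had positive log2 fold changes in the authors' deposited table. These 5 genes were chosen after their values were seen.

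The promoters of the matched members held more CpG dinucleotides than the windows of all genes, which take in genes without reads here. Bambi and Bmp2 were not among the matched members. Expressed genes alone were not used as a background. Over the 33 windows of the 27 matched members, the 250 bases before the start had a median of 22 CpG and 66.4% G and C, against 6 and 52.4% over 32851 windows of all genes. GGCGCC occurred in 24.2% of the members' windows and in 9.59% of all, and CAGAC in 45.5% and 42.2%. Windows of 1 gene overlap, and motif counts follow base composition, so this is a description of the sequences. The 40 genes span a median of 36.1 kb, against 21.9 kb over all tested genes. Bambi (8.48 kb), Bmp4 (7.15 kb) and Bmp2 (10.7 kb) are short and Tgfbr1 (61.7 kb) is long.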
